A study of Mus musculus with 2 samples.

Results

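The mouse alpha-globin locus on chromosome 11 and the genes that adjoin it were described in polyadenylated RNA of G1E-ER4 cells. The 10 genes were taken by symbol from Il9r to Hbq1a, out of 55536 mouse genes in the quantification tables for GENCODE release M21. They were 5 globin genes, Hba-x, Hba-a1, Hbq1b, Hba-a2 and Hbq1a, and 5 neighbours that encode no globin, Il9r, Snrnp25, Rhbdf1, Mpg and Nprl3. The choice rests on position and uses no measured value.

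All libraries came from 1 group. G1E-ER4 is an immortalized mouse erythroid line without a working Gata1 gene of its own, in which GATA1 is supplied as a fusion to the ligand-binding domain of the estrogen receptor, and the labels describe it as erythroid with Gata1 restored. The cells were treated with 17beta-estradiol at 10 nM for 24 h, which switches the fusion on and starts differentiation, and paired-end libraries were numbered as biological replicates 1 and 2. Both point to 1 biosample record and nothing in the labels says that they came from separate cultures. The difference between them may therefore be technical. There is no untreated or parental sample, hence every value below is a level in treated cells and no test between conditions exists. Replicate 1 held 71485617 expected counts over genes and replicate 2 held 14121747. In such bulk libraries a smaller share of expressing cells and less RNA per cell cannot be told apart. All 7 erythroid markers were detected, among them Gata1, whose reads in this line may come from the fusion. None of the 4 mast cell markers had a count. Of the other marker lists, 2 of 4 megakaryocyte genes, 1 of 5 macrophage and granulocyte genes, 0 of 4 lymphoid genes and 0 of 3 fibroblast genes were detected, with summed levels of at most 6.96 TPM in a list.

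Alpha-globin chains pair with beta-globin chains to form haemoglobin, and red cell precursors make them in very large amounts. In the mouse, Hba-x encodes the embryonic zeta-like chain, the copies Hba-a1 and Hba-a2 encode the adult alpha chain, and Hbq1b and Hbq1a encode theta-like chains whose role is not well understood. The main enhancers of the adult genes lie upstream of them, several within introns of the housekeeping gene Nprl3, and are bound by GATA1 and its partners. Since these enhancers sit inside and beside genes that have nothing to do with haemoglobin, the level of the neighbours in erythroid cells is a recurrent question for this locus.

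Hba-a1 and Hba-a2 are so alike that a single base separates their transcripts over the shared stretch. The split between the copies turns on this base and, for the coding transcripts, on the ends beyond that stretch. Each 30-base window below lies in the coding part of the last exon, on the plus strand of GRCm38, and the capital marks the base that differs.
Hba-a1, chr11:32284328-32284357: gcatgcctctctggaCaaattccttgcctc
Hba-a2, chr11:32297145-32297174: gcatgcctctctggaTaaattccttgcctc
In positions counted from 1 at the 5′ end of the transcript Hba-a1-201, the substitution is C577T, with the base of Hba-a1 first. Over the 538 bases that Hba-a1-201 and Hba-a2-201 share, 537 were identical. Beyond that stretch Hba-a1-201 carries 161 more bases at its 5′ end and Hba-a2-201 has 16 more at its 3′ end.

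Each copy also has a shorter annotated transcript, Hba-a1-202 or Hba-a2-202, of the retained-intron type. These have 494 bases in 2 exons, lack exon 1, begin inside intron 1 and keep 113 of its 122 bases before running into exon 2. The join between exon 1 and exon 2 in the coding transcript and the border between intron 1 and exon 2 in the shorter one are given next, with exon 2 in capitals, because the share of reads placed on each model is one of the main results.
Hba-a1-201, spliced: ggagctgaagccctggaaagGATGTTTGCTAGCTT
Hba-a1-202, intron kept: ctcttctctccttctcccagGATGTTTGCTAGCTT
The 381 bases of exons 2 and 3 in Hba-a1-202 are the same as in the spliced transcript, and Hba-a1-202 differs from Hba-a2-202 only by the substitution C399T. Windows of 31 bases found in Hba-a1-202 and in no other Hba-a transcript numbered 0 of 464, and windows of 150 bases numbered 0 of 345. For Hba-a2-202 both counts were also 0. Among windows of 150 bases, 188 of 550 in Hba-a1-201 and 43 of 405 in Hba-a2-201 were found in no other Hba-a transcript. The mean fragment length implied by the effective lengths deposited with the M21 alignment values was 153 bases in replicate 1 and 131 bases in replicate 2. Those deposited with the read-based values imply 131 and 96.5 bases. A typical fragment can therefore not be assigned to 1 shorter model alone. Fragments that hold intron 1 bases fit both shorter models and neither coding transcript. Those within exons 2 and 3 fit coding and shorter models alike.

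The start regions of the copies match as closely. The RefSeq promoter table for GRCm38.p6 holds 9 of the 10 genes, with 250 bases before and 50 after each start, and the windows of Hba-a1 and Hba-a2 shared an identical run of 297 of 300 bases. The 30-base stretches that follow come from upstream of Hba-a2, plus strand, and show in capitals a GATA word (TGATAA), the CCAAT box, the CACCC box and a TATA box (TATAA), textbook elements of a globin promoter.
GATA word, chr11:32296294-32296323: tgtccgggcaacTGATAAggattccctgca
CCAAT box, chr11:32296389-32296418: agcacaaaccagCCAATgagaactgctcca
CACCC box, chr11:32296417-32296446: caagggcgtgtcCACCCtgcctggaggaca
TATA box, chr11:32296450-32296479: ccttggagggcaTATAAgtgctacttgctg
They begin 186, 91, 63 and 30 bases before the RefSeq start of Hba-a2, and 183, 88, 60 and 27 bases before that of Hba-a1. GENCODE M21 starts Hba-a1-201 161 bases further upstream than RefSeq starts Hba-a1, so the CCAAT box, the CACCC word nearest the RefSeq start and the TATA box of that gene lie within that annotated exon 1. For Hba-a2 the annotations differ by 3 bases.

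The same words were searched on both strands of the 250 bases before each RefSeq start. TATAA was found in 22.8% of all 32851 promoters of the table, CCAAT in 33.8%, CACCC in 52.0%, and a GATA word in 26.5%. The GATA words were AGATAA as well as TGATAA, and both of these with G as the last letter. Hba-a1 and Hba-a2 each had all 4 kinds, and no other matched member did. Hba-x had TATAA 28 bases before its start, 2 CACCC words and 2 GATA words but no CCAAT. Hbq1b had TATAA and CCAAT at 156 and 149 bases, Hbq1a had CCAAT alone at 149 bases, and the windows of the theta-like genes were identical at 286 of 300 positions. Among the neighbours, Snrnp25 had 3 CCAAT words and 1 GATA word, Mpg had 2 CCAAT words and 1 CACCC, Il9r had 2 GATA words and 1 CACCC, and Nprl3 had 1 TATAA at 106 bases and no other word. A match describes letters only.

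The 10 genes span 113.333 kb of GRCm38 from 32187541 to 32300873, with no other annotated gene between the first and the last. The neighbours occupy the left side in the order Il9r, Snrnp25, Rhbdf1, Mpg and Nprl3, and the globins lie on the plus strand within 24.474 kb on the right. Mpg lies wholly within the span of Nprl3 on the opposite strand. Hba-x starts 8.693 kb from the near end of Nprl3, and the starts of Hba-a1 and Hba-a2 are 12.978 kb apart.

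**Figure D1:**
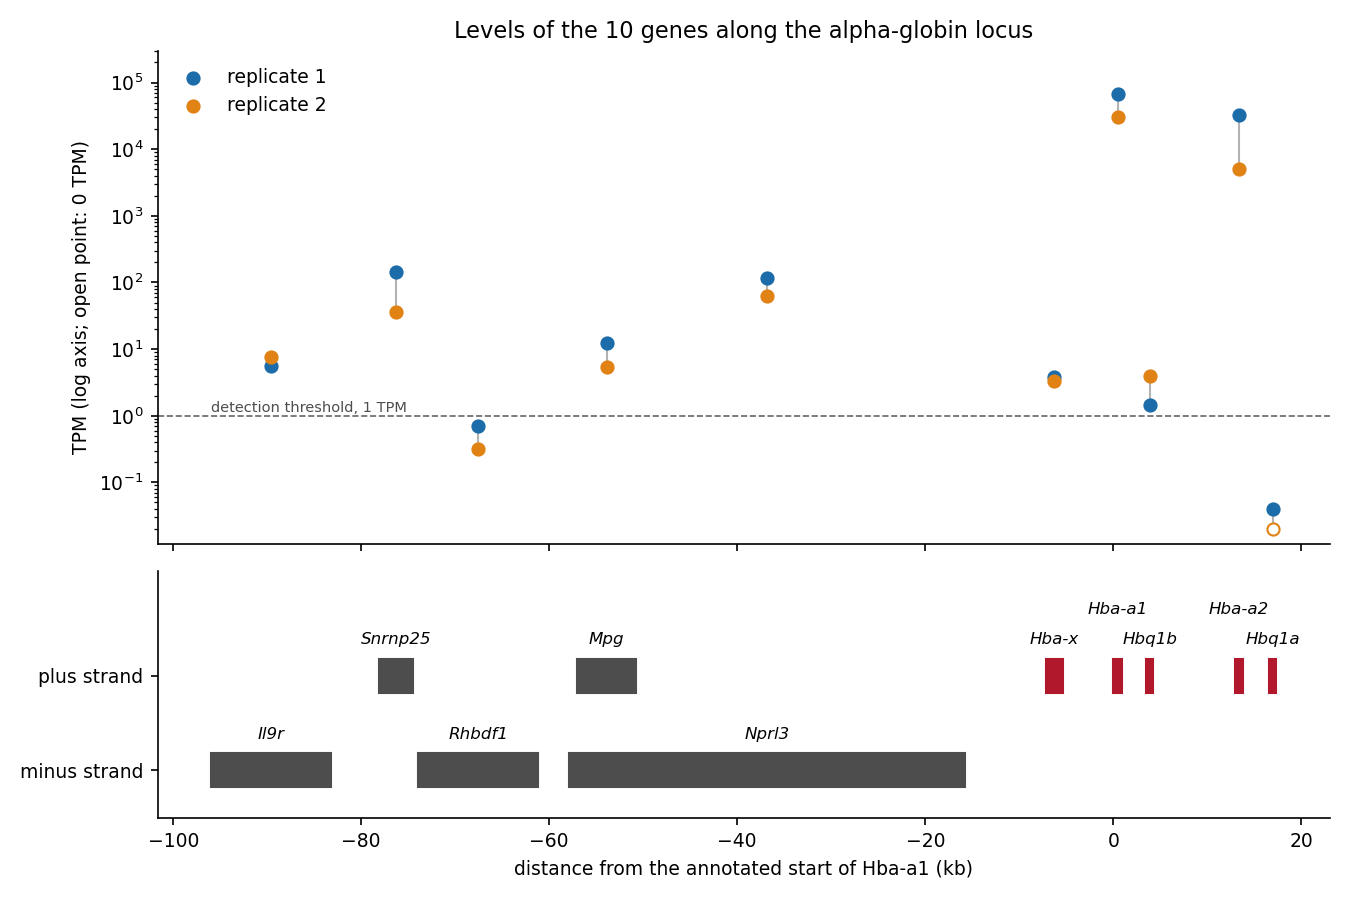
The upper panel plots TPM (log axis) of each of the 10 genes in replicates 1 and 2 above its position, with the 1 TPM detection threshold dashed and an open point for 0 TPM. The lower panel maps the genes by strand and by distance in kb from the annotated start of Hba-a1, neighbours in grey and globins in red. Hba-a1 and Hba-a2 lie at 5102 TPM or higher in both replicates, and every other gene lies at 142 TPM or lower.

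A gene was called detected at 1 TPM (a length-corrected share of the library) or more in both replicates. By this rule 8 of the 10 members were detected, all but Rhbdf1 and Hbq1a, against 33.1% of the 22028 protein-coding genes. The detected genes were 4 of 5 globins and 4 of 5 neighbours. The levels fell into tiers that both replicates shared. The adult pair stood at 5102 TPM or higher, Nprl3 and Snrnp25 lay between 35.5 and 142 TPM, and Mpg, Il9r, Hba-x and Hbq1b lay between 1.43 and 12.3 TPM. Neighbours in the order Hba-a1, Hba-a2, Nprl3, Snrnp25, Mpg, Il9r, Hba-x, Hbq1b, Rhbdf1, Hbq1a did not differ beyond the spread of the replicates in 4 pairs. These were Hba-a1 and Hba-a2, Nprl3 and Snrnp25, Mpg and Il9r, and Hba-x and Hbq1b, whose ranges overlapped. The other 5 steps down the order did not overlap.

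The adult alpha-globin genes dominated the locus. Hba-a1 (ENSMUSG00000069919.7, chr11:32283511-32284465) reached 67200 TPM in replicate 1, against 30385 TPM in replicate 2, with a mean of 48792 ± 26032 TPM (SD, n = 2). Its rank among all genes was 2 and 4. Hba-a2 (ENSMUSG00000069917.7, chr11:32296489-32297298) was at 32217 TPM and 5102 TPM, a mean of 18659 ± 19173 TPM (SD, n = 2), at rank 4 and rank 21. Hba-a1 led in both replicates of this table, but its replicate 2 value lay below the replicate 1 value of Hba-a2.

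Their summed counts do not depend on how reads are split between the copies, although their summed TPM does through the lengths of the models. As a pair they held 99417 TPM in replicate 1 and 35487 TPM in replicate 2, on average 67452 ± 45205 TPM (SD, n = 2). The other 8 members summed to 283 TPM and 119 TPM. The pair therefore made up 99.7% of the TPM of the 10 genes in each replicate. Of all expected counts, 3.70% belonged to the pair in replicate 1 (95% Wilson interval 3.69% to 3.70%) and 1.67% in replicate 2 (1.66% to 1.68%). Both intervals reflect counting error alone. The pair exceeded Nprl3 850-fold in TPM in replicate 1 and 564-fold in replicate 2. The same ratio was 628 and 247 in the read-based table, and 370 and 328 in expected counts, with no length correction.

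The pair was lower in replicate 2 on every scale computed. The ratio of replicate 2 to replicate 1 was 0.357 in TPM and 0.451 in counts scaled to the library total (CPM, a share without length correction), the latter with an exact binomial interval of 0.449 to 0.453. On the log2 scale the pair's ratio was -1.49 in TPM, -1.15 in CPM, -0.79 with TMM factors and -0.72 with DESeq2 size factors, so with these scalings it was under 2-fold. In the read-based table the pair held 57682 and 6868 TPM, a log2 ratio of -3.07, in a table whose median gene moved by -1.77. Here and below, the median gene is taken over genes whose M21 expected counts averaged 50 or more, with nonzero values in both replicates. Relative to the median gene, which itself moved by -0.39 on the log2 scale in TPM and -0.64 in CPM, the pair stood at -1.10 in TPM and -0.51 in CPM. Among the erythroid markers, Alas2 and Tfrc were over 2-fold lower in TPM in replicate 2 and Klf1 was over 2-fold higher. Alas2, the first enzyme of haem synthesis in red cells, was at 304 and 69.0 TPM, and Klf1, a factor that activates globin genes, at 634 and 2134 TPM. Their part in the difference of the pair was not tested.

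How the pair split between the copies was not stable. Hba-a1 had 67.6% of the pair's TPM in replicate 1 and 85.6% in replicate 2. With annotation M4 the shares were 67.6% and 94.2%. In the third table, quantified from the reads themselves, they were 61.0% and 39.7%, so that Hba-a2 led in replicate 2. In expected counts Hba-a1 had 64.5% and 89.3%. Which copy contributed more in replicate 2 thus depended on the table.

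The models within each copy differed even more between the replicates. In the M21 alignment table, Hba-a1-202, the shorter model that keeps intron 1 sequence, took 64602 TPM in replicate 1 and 1268 TPM in replicate 2, or 96.1% and 4.17% of Hba-a1. The coding transcript Hba-a1-201 took 2598 TPM and 29117 TPM. For Hba-a2 the coding transcript Hba-a2-201 held all of the 32217 TPM in replicate 1 and 61.2% in replicate 2, where Hba-a2-202 had the other 38.8%. In M4, Hba-a1-202 had 95.4% of Hba-a1 in replicate 1 and 0% in replicate 2. The read-based table placed nearly all of Hba-a1 on Hba-a1-202 in both replicates, 98.7% and 99.1%, and nothing on Hba-a2-202.

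Summed over both copies, the coding transcripts stood at 34815 TPM in replicate 1 against 32239 TPM in replicate 2, a ratio of 0.926. The retained-intron models stood at 64602 TPM and 3248 TPM, a ratio of 0.0503. In the M21 alignment table the difference of the pair between replicates was thus placed on the shorter models. M4 gave a coding ratio of 1.01. In the read-based table the coding sum was also lower in replicate 2, at 22965 TPM and 4167 TPM, a ratio of 0.181, beside 34716 TPM and 2701 TPM on the shorter models. Relative to the median gene of each table, the log2 ratio of the coding sum was 0.28 in M21 and -0.69 in the read-based table, and that of the shorter models was -3.92 and -1.91. In these sums the shorter models were thus further down than the coding ones in both tables. Within single copies this did not always hold. In the read-based table nearly all of the coding sum was Hba-a2-201 and all of the shorter sum Hba-a1-202. The contrast there is therefore also one between the copies. Within Hba-a1 the read-based ratio was 0.0515 for the coding transcript and 0.0778 for the shorter model. In M21, Hba-a2-202 rose from 0 to 1980 TPM, while Hba-a2-201 had a ratio of 0.0969. The sequences printed above differ between the coding and shorter models only outside the shared exons 2 and 3. The placement also sets the length used for TPM. The effective length of Hba-a1 was 350 bases in replicate 1 and 561 bases in replicate 2, and the gene's ratio of replicate 2 to replicate 1 was 0.452 in TPM against 0.625 in CPM.

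**Figure D2:**
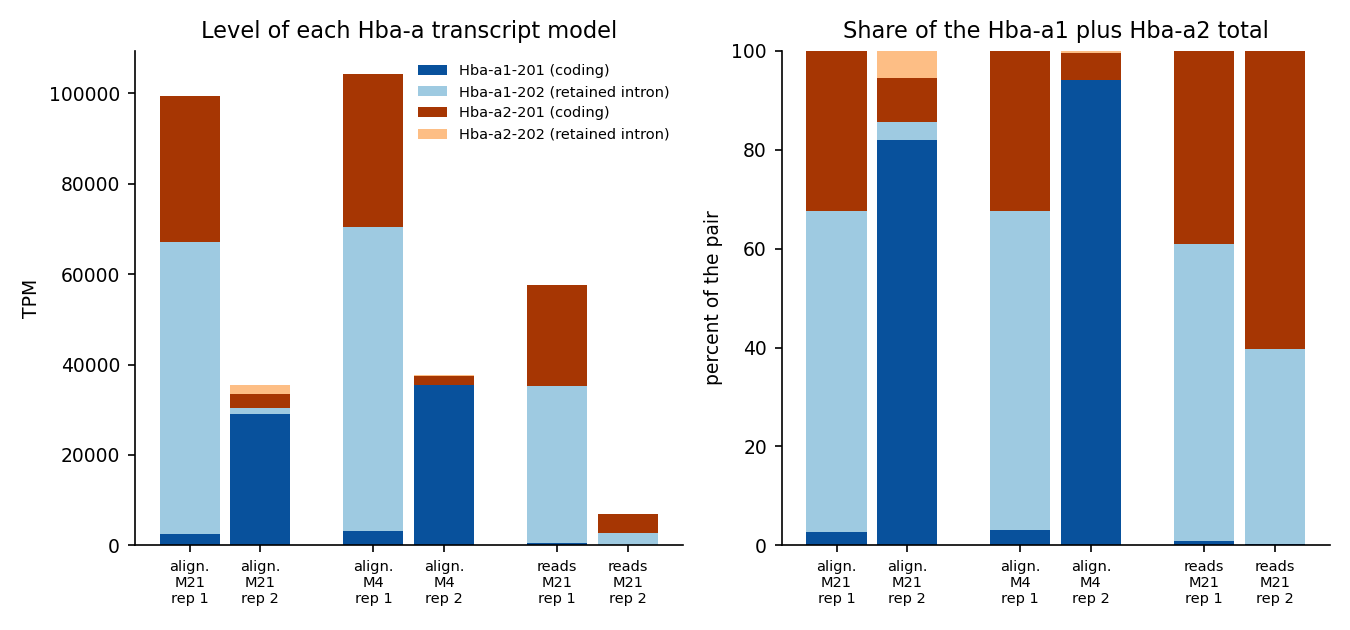
Stacked bars give the level (left, TPM on a linear axis) and the share (right, percent of the Hba-a1 plus Hba-a2 total) of the coding and retained-intron models of each copy, for the alignment tables of M21 and M4 and the read-based table, in replicates 1 and 2. The pale blue Hba-a1-202 takes most of Hba-a1 in every bar but those of replicate 2 in the alignment tables, where Hba-a1-201 takes 95.8% (M21) or all of it (M4).

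The remaining globins were low. Hba-x (ENSMUSG00000055609.8, chr11:32276400-32278116), the embryonic gene, was at 3.83 TPM and 3.38 TPM on 134 and 21 expected counts, a mean of 3.61 ± 0.318 TPM (SD, n = 2). In TPM its replicates lay closer than those of any other detected member, while in CPM those of Il9r lay closer. The pair exceeded it 25957-fold and 10499-fold in TPM. In the read-based table Hba-x was at 3.18 and 1.01 TPM. Its incomplete model Hba-x-202 led in both alignment replicates, with 74.7% and 75.4%, whereas Hba-x-201 led in both replicates of the read-based table, with 51.0% and 88.9%.

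The theta-like genes differed from each other in level. Hbq1b (ENSMUSG00000073063.3, chr11:32286965-32287784) was at 1.43 TPM and 3.91 TPM on 45.6 and 27 counts, or 2.67 ± 1.75 TPM (SD, n = 2). Hbq1a (ENSMUSG00000020295.1, chr11:32300069-32300873) was at 0.04 TPM on 1.37 counts in replicate 1 and had 0 counts in replicate 2, which allows up to 3 counts or 0.212 CPM. The read-based table gave Hbq1b 6.12 and 4.22 TPM and Hbq1a 0.403 and 0.110 TPM. It placed 343 and 205 counts on Hbq1b, far more than the alignment table. Rescaled over nuclear protein-coding genes, its Hbq1b values were 8.26 and 17.7 TPM. The level of Hbq1b thus depended on the table. Hbq1b was the higher of the 2 genes in both replicates of all 3 tables. The transcripts Hbq1b-201 and Hbq1a-201 are identical at 432 of 562 bases aligned without gaps, a count that any insertion or deletion would lower. By windows, reads are less shared here than between the adult copies. Among windows of 150 bases, 82.3% of Hbq1b-201 do not occur in Hbq1a. Those of Hba-a1-201 and Hba-a2-201 absent from the other copy were 51.6% and 34.3%. Even so the alignment table moved Hbq1b from 76.9% coding in replicate 1 to 100% on the retained-intron model Hbq1b-202 in replicate 2, while the read-based table gave 86.3% and 87.3% coding. With 27 counts in replicate 2 of the alignment table, its placement rests on few fragments.

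Nprl3 and Snrnp25 were the highest neighbours, with means that hardly differed in the M21 table. Nprl3 encodes a subunit of GATOR1, the complex that restrains the growth kinase mTORC1 when amino acids are scarce, and its introns carry the enhancers of the alpha-globin genes. Nprl3 (ENSMUSG00000020289.15, chr11:32225628-32267707, minus strand) was at 117 TPM and 62.9 TPM, a mean of 89.9 ± 38.2 TPM (SD, n = 2), on 7140 and 719 counts. It stood 13.0 times above the median of the 4 other neighbours in replicate 1 and 9.64 times above it in replicate 2. In the read-based table these ratios were 11.4 and 15.9. In expected counts, with no length correction, they were lower, at 7.14 and 6.23. Among all genes it ranked 1029 and 1671.

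Most of the Nprl3 level lay on incomplete or exon-skipping models. Of its 16 annotated transcripts, Nprl3-208 had 67.8% and 61.3% of the gene's TPM. This is a model of 623 bases and 6 exons that the annotation marks as incomplete, covering the first part of the gene and holding an exon of 39 bases that is absent from the full transcript. Nprl3-212, annotated for nonsense-mediated decay, the pathway that destroys transcripts with early stop codons, had 25.2% and 28.1%. It leaves out 2 exons of the full transcript, of 130 bases at chr11:32255439-32255568 and 75 bases at chr11:32253875-32253949. The full coding transcript Nprl3-201 with its 13 exons was at 5.77 TPM and 2.47 TPM, or 4.93% and 3.93% of the gene. This order in TPM was the same in both replicates of the M21 and M4 alignment tables. In expected counts, which longer models gain, Nprl3-212 led with 43.4% and 44.7%, Nprl3-208 had 37.9% and 32.7%, and Nprl3-201 had 15.9% and 11.6%. In the read-based table Nprl3-208 led in replicate 1 with 77.6%, but Nprl3-216, a model of 4 exons for nonsense-mediated decay, led in replicate 2 with 46.0%.

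Enhancers within introns can act as start sites, and 7 annotated Nprl3 transcripts begin over 1 kb inside the gene. Together they had 1.61 TPM in replicate 1 and 0.80 TPM in replicate 2, or 1.38% and 1.27% of the gene. The read-based table gave 1.56% and 1.62%. Their share thus lay between 1% and 2% in both replicates and both tables. Most of the M21 sum was Nprl3-215, a retained-intron model that begins 33.306 kb inside the gene, at 1.10 and 0.54 TPM. Of the models that begin nearer the start of the gene, Nprl3-207 was at 0.26 and 0 TPM and Nprl3-203 at 0.01 and 0 TPM. Nprl3-204 and Nprl3-214 had 0 TPM in both replicates. Whether any of these models begins at an enhancer was not tested. The libraries hold polyadenylated RNA, so transcripts without a poly(A) tail were not measured.

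Snrnp25, which encodes a protein of the minor spliceosome, the machinery for a rare class of introns, was at 142 TPM and 35.5 TPM, a mean of 89.0 ± 75.7 TPM (SD, n = 2). The gene (ENSMUSG00000040767.10, chr11:32205415-32208984) had 3698 and 303 counts. It exceeded Nprl3 in replicate 1 and not in replicate 2, whereas in the read-based table it was above Nprl3 in both, at 178 against 91.8 TPM and 29.7 against 27.8 TPM. As with the adult globins, the alignment table placed the difference on a short noncoding model. Snrnp25-205, a processed transcript of 375 bases in 3 exons, held 99.1 TPM in replicate 1 and none in replicate 2. The coding transcript Snrnp25-201, of 821 bases in 5 exons, was at 43.0 and 35.5 TPM. The read-based table again differed and had Snrnp25-205 in front in both, with 83.3% and 76.1% of the gene.

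Mpg encodes the glycosylase that removes alkylated bases from DNA. The gene (ENSMUSG00000020287.15, chr11:32226505-32232700) was at 12.3 TPM and 5.41 TPM, a mean of 8.87 ± 4.89 TPM (SD, n = 2), on 1315 and 75 counts. Its coding transcript Mpg-201 held 77.2% in replicate 1 and had 0 counts in replicate 2, where Mpg-203, annotated for nonsense-mediated decay, had 63.2% and the retained-intron model Mpg-204 had 32.3%. The read-based table kept 39.8% and 16.4% on Mpg-201. Mpg-201 and Nprl3-201 overlap by 738 exonic bases on opposite strands. The use of strand in counting was not given in the sources used here. Reads from that stretch may therefore belong to either gene.

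Il9r and Rhbdf1 completed the neighbours. Il9r (ENSMUSG00000020279.10, chr11:32187541-32200279, minus strand), the receptor chain specific to interleukin 9, was at 5.67 TPM and 7.65 TPM, a mean of 6.66 ± 1.40 TPM (SD, n = 2), on 685 and 156 counts. Its coding transcript Il9r-202 led in both replicates of all 3 tables, with 76.9% and 97.6% in M21. Rhbdf1 (ENSMUSG00000020282.18, chr11:32209585-32222300, minus strand), an inactive rhomboid protein that helps ADAM17 mature, was at 0.70 TPM and 0.32 TPM on 62 and 11 counts. It was the one neighbour under the threshold, but the authors' interval for its posterior level, 0.594 to 1.39 TPM and 0.651 to 2.58 TPM, reaches above 1 TPM in both replicates.

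**Figure D3:**
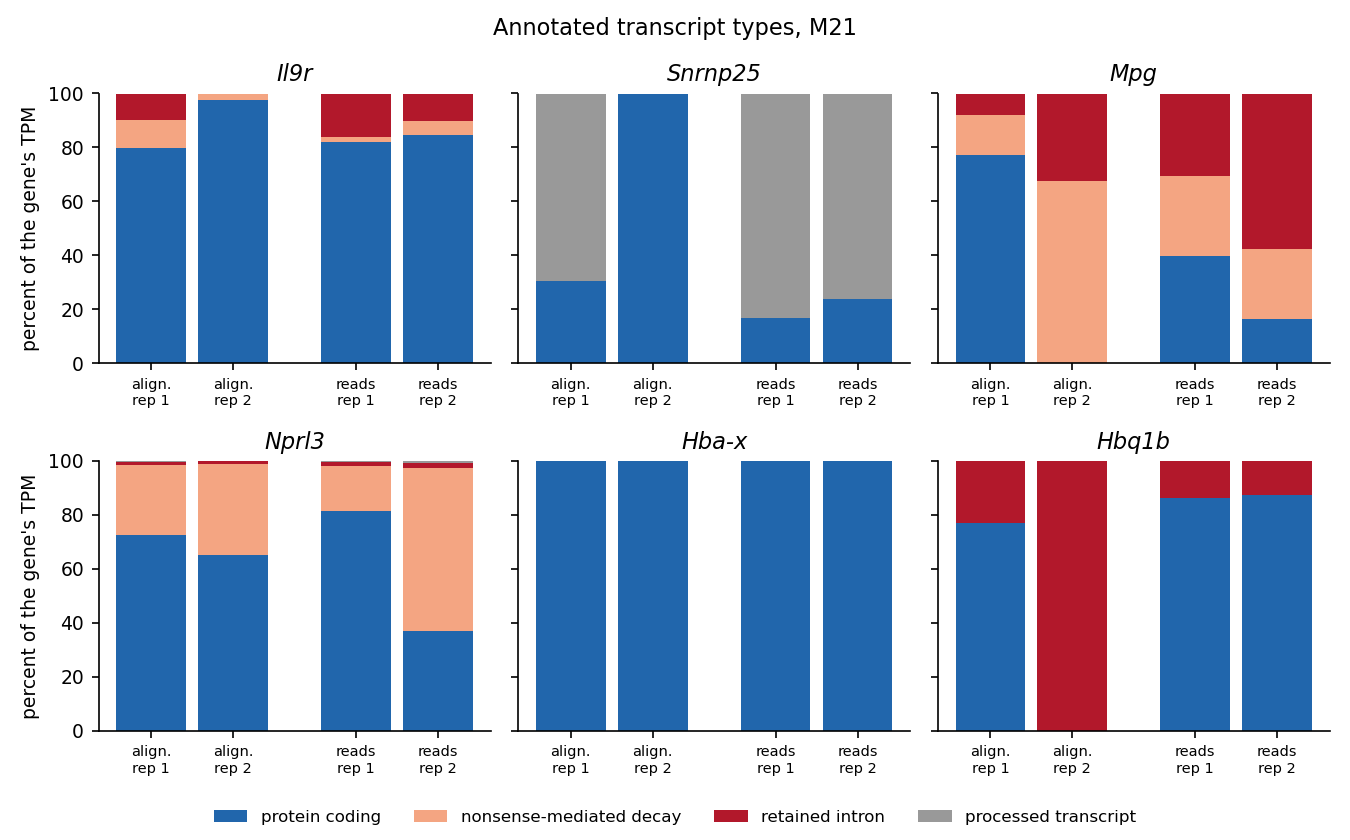
Stacked bars give the percent of each gene's TPM on each annotated transcript type in the M21 alignment table (align.) and the read-based table (reads), replicates 1 and 2, for 6 detected members. Snrnp25, Mpg and Hbq1b change their leading type between replicates in the alignment table, Mpg and Nprl3 do so in the read-based table, and Hba-x has coding models only.

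Over the 9 members with more than 1 transcript, the same transcript led in both replicates for 4 in the M21 table (Il9r, Nprl3, Hba-x and Hba-a2). The read-based table gave 6 (Il9r, Snrnp25, Hba-x, Hba-a1, Hbq1b and Hba-a2). Il9r, Hba-x and Hba-a2 were in both lists, and Hba-x led with a different transcript in each table.

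To compare the replicates at the level of genes, members whose expected counts averaged 50 or more were called apart when their TPM differed over 2-fold. Of the 10 members 7 passed the count filter, and Rhbdf1, Hbq1b and Hbq1a did not. Snrnp25, Mpg, Hba-a1 and Hba-a2, 4 of the 7, were over 2-fold lower in replicate 2, against 35.4% of the 9029 genes compared, and 0 were over 2-fold higher, against 15.5%. In either direction 50.9% of all genes were that far apart, so the count of members lies near the background. Il9r, Nprl3 and Hba-x were less than 2-fold apart. In CPM 3 members were over 2-fold lower, Snrnp25, Mpg and Hba-a2, against 41.3% of all genes.

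Set against the median gene, Hba-a2 stood lowest of the 7, at -2.27 on the log2 TPM scale and -2.24 in CPM. The copies changed places in the read-based table, with Hba-a1 lowest at -1.92 and Hba-a2 at -0.67. Snrnp25 stood at -1.61 and -0.63, and Mpg at -0.80 and -1.15. Hba-a1 stood at -0.76 in TPM but at -0.04 in CPM, where it moved with the median gene. Il9r stood at 0.82 and 0.85. The sign of its unadjusted log2 ratio was positive on every scale, for example 0.43 in TPM, except in the unscaled read-based table at -1.53, in which the median gene moved by -1.77. The exact binomial interval of the CPM ratio for Il9r, 0.963 to 1.37, includes 1, and so does that of Hba-x, 0.475 to 1.26. For the others of the 7 it does not, but it holds counting error only.

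**Figure D4:**
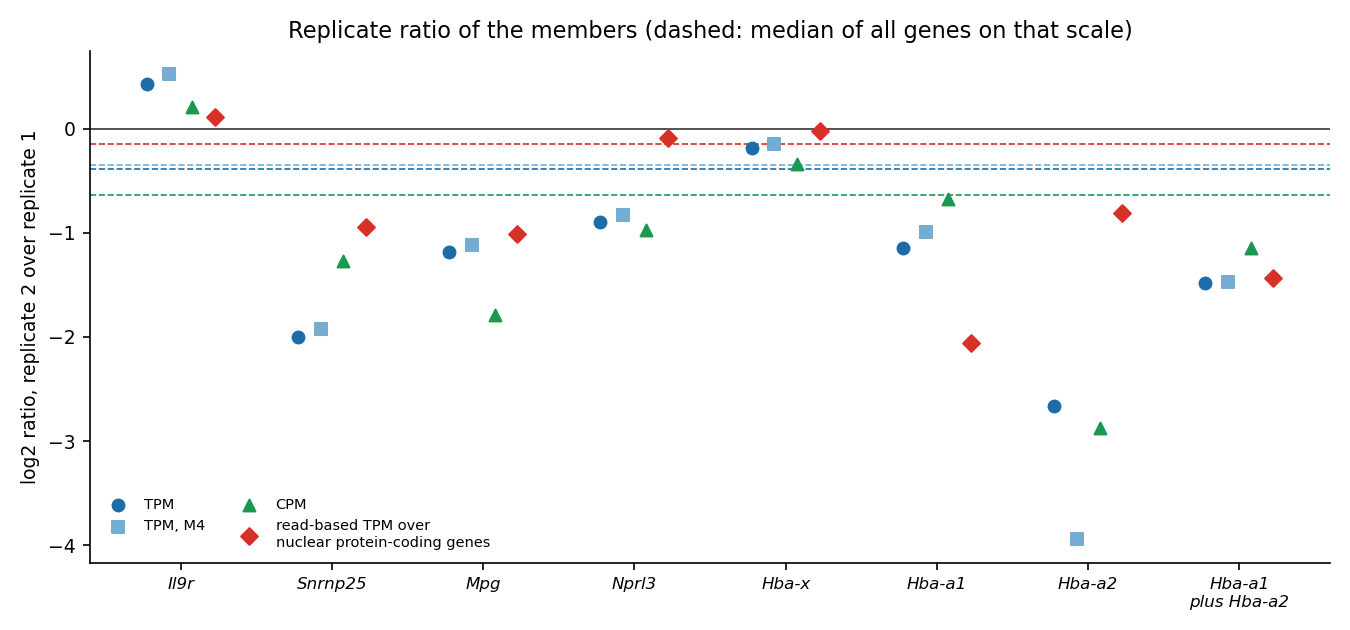
Points give the log2 ratio of replicate 2 to replicate 1 for the 7 members that passed the count filter and for the adult pair summed, on 4 scales. Dashed lines, titled as the median of all genes, give the median on the scale of the same colour. It is taken over genes whose M21 expected counts averaged 50 or more, with nonzero values in both replicates. Snrnp25, Mpg, Hba-a2 and the pair lie below the dashed line on all 4 scales and Il9r above it, while Hba-a1 lies on the line in CPM.

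Past either end of the locus the nearest genes were silent or nearly so. The 3 nearest protein-coding genes on the right, Sh3pxd2b, Ubtd2 and Efcab9, had 0, 0 and 1 counts in replicate 1 and none in replicate 2. Sh3pxd2b, the closest, begins 46.947 kb from Hbq1a. On the left, Nsg2 had none and 4930524B15Rik had 1, and Cpeb4, a regulator of translation in red cell precursors that lies 251.907 kb away, was at 68.3 and 30.3 TPM. The noncoding genes Gm12108 and Gm12109 between Nsg2 and Il9r had no counts.

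The genes known to act with the members were read from 9 lists with 93 entries, of which 90 were found. Hbb-b1, Hbb-b2 and Ahsp had no entry under these symbols. Between replicates, 4 of 18 enhancer and promoter factors were over 2-fold higher in TPM in replicate 2 and 5 were lower, beside 15.5% and 35.4% of all genes. Lower calls outnumbered higher ones for architecture genes (3 against 0), base excision repair (7 against 1), minor spliceosome (4 against 1), other globins (2 against 0), iRhom and ADAM17 (1 against 0) and interleukin 9 partners (2 against 1). They were even for protein handling (1 each), and fewer for GATOR1 and its targets (1 against 2). Of factors known at the alpha-globin enhancers and promoters, 18 of 18 were detected. Zfpm1, the GATA1 cofactor also called FOG1, was at 2283 and 4616 TPM, Gata1 at 2890 and 2661 TPM, and Klf1 as above. In this line Gata1 reads may come from the fusion. Of architecture and coactivator genes 12 of 12 were detected, among them Ctcf, the insulator protein, at 131 and 85.2 TPM and Wapl, the factor that releases cohesin, at 33.3 and 43.6 TPM. Of genes that handle alpha-globin protein 5 of 5 were detected, led by the autophagy kinase Ulk1 at 140 and 354 TPM, the haem-regulated kinase Eif2ak1 at 105 and 125 TPM and the ubiquitin ligase Ube2o at 50.9 and 33.9 TPM. Among other globins 4 of 10 were detected, Hbb-bs, Hbb-bt, Hbb-y and Hbb-bh1. Myoglobin (Mb) and cytoglobin (Cygb) had no counts. Hba-a1 and Hba-a2 together stood at 1.02 times Hbb-bs, the main adult beta gene, in M21 TPM in each replicate. The same ratio was 0.665 and 0.340 in the read-based table. In expected counts, with no length correction, the pair had 2644022 and 235648 and Hbb-bs 3372024 and 213881. By counts the pair was thus below Hbb-bs in replicate 1 and above it in replicate 2.

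Nprl3 far exceeded the other subunits of its own complex. Nprl2, its direct partner, was at 0.87 and 0.49 TPM, and Depdc5, the third subunit, was at 3.06 and 0.93 TPM. Depdc5 is named outside the rule for naming genes, after its values were seen, to complete the complex. Nprl3 stood 134 and 128 times above Nprl2 and 38.2 and 67.7 times above Depdc5. The read-based ratios were 71.5 and 118 for Nprl2 and 40.9 and 70.7 for Depdc5. The full coding transcript Nprl3-201 alone stood 6.63 and 5.04 times above Nprl2 and 1.89 and 2.66 times above Depdc5. Of the 8 genes of GATOR1 and its target complex besides Nprl3, 5 were detected, led by the Rag GTPases Rraga at 112 and 233 TPM and Rragc at 34.3 and 86.8 TPM, and by Rptor at 39.6 and 22.4 TPM. Rragb had no count in replicate 1 and 1 in replicate 2.

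All 5 neighbours, Nprl3 included, had listed partners at higher levels than their own in replicate 2. Snrnp25 was the highest of the minor spliceosome genes in replicate 1, but in replicate 2 it was below Pdcd7 at 126 TPM, Zcrb1 at 105 TPM and Zmat5 at 98.9 TPM. Of the 8 listed, 7 were detected, and Zrsr1 was at 8.56 and 0.40 TPM. For Mpg, 13 of 15 genes of base excision repair were detected. Their highest were Xrcc1 at 181 and 199 TPM, Lig3 at 29.02 and 75.97 TPM and Apex1 at 84.3 and 9.75 TPM, and the glycosylases Nthl1 at 2.86 and 0.54 TPM and Mbd4 at 1.32 and 0.14 TPM were not detected. For Rhbdf1, the paralogue Rhbdf2 was at 8.30 and 15.8 TPM, 11.9 and 49.4 times higher (10.6 and 23.4 times in the read-based table), the second ratio resting on 11 counts of Rhbdf1, and Adam17 at 19.5 and 7.94 TPM and Frmd8 at 10.1 and 12.9 TPM were also detected. Rhbdl2 had no counts and Rhbdl3 had 1. For Il9r, the kinase Jak1 was at 258 and 287 TPM, Stat5b at 57.3 and 33.2 TPM and Stat3 at 27.1 and 13.0 TPM, and 6 of 8 genes were detected. The common gamma chain Il2rg, which the interleukin 9 receptor needs to signal, was at 2.48 and 0.74 TPM and the ligand Il9 had no counts.

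**Figure D5:**
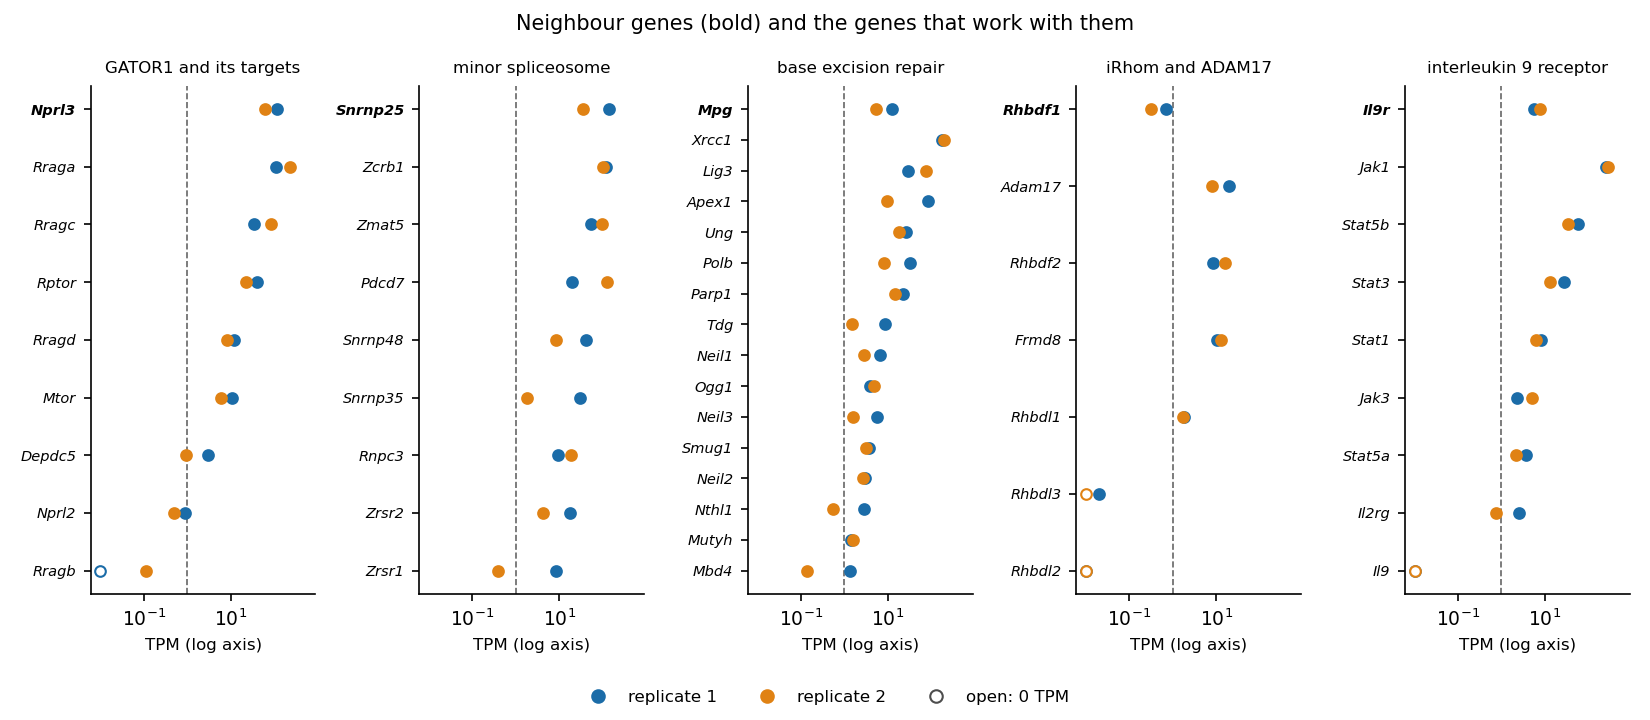
Points give TPM (log axis) in replicates 1 and 2 of each neighbour gene (bold, top row) and of the listed genes that act with it, with open points for 0 TPM and a dashed line at 1 TPM. Nprl3 lies to the right of Depdc5 and Nprl2, Rhbdf1 lies to the left of the threshold and of Rhbdf2, and Il9 has no counts.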

How the data were processed

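Both libraries were used, with the replicate numbers of the labels. Per the labels, reads were placed on mm10. The authors deposited, per the file headers, expected counts (estimated fragments, not normalized) and TPM per gene and transcript for GENCODE M21 and M4, with posterior means, interval bounds and effective lengths, and a table quantified from reads for M21. The interval bounds and effective lengths are deposited as plain values, the bounds being a signal in TPM. The transcript tables also hold, per the file headers, each transcript's percent of its gene. The level of the interval, the aligner, the quantifiers and the use of strand were not given in the sources used here.

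Main values came from the M21 gene table. Spike-in and tRNA entries, 3 counts in replicate 1 and 0 in replicate 2, were left out. TPM of the read-based table was summed per gene. Shares of transcripts were computed from TPM. Ratios over 2-fold were counted where expected counts averaged 50 or more, and the code was tested on simulated data. Intervals are at 95%, and the floor is 3 counts. Promoters came from RefSeq for GRCm38.p6 and transcripts from GENCODE M21. Alternatives were M4, the read-based table, also over nuclear protein-coding genes, posterior means, TPM over nuclear protein-coding genes, CPM, edgeR TMM factors, DESeq2 size factors on rounded counts, other thresholds and pseudocounts, and each replicate alone. Counting the pair as 1 member was added after the data were seen.

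The members, gene lists and tests were chosen with earlier results of these data known. Named were all members, 3 coding genes on each side, and of each list the 3 highest detected genes and up to 2 of the lowest undetected. Some items that this rule would name are not reported here. Python 3.11.15, pandas 2.3.3, scipy 1.17.1, R 4.3.3, edgeR 4.0.16 and DESeq2 1.42.0 were used.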

Additional observations from a re-analysis of the deposited data

How the results depend on the processing

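The mean level of the pair, 67452 TPM, was 32275 TPM in the read-based table, still within an SD of 45205 TPM, which a pair of replicates makes a loose bound. The share of the adult pair in the locus moved from 99.7% to 99.3% in the read-based table and to 99.5% in expected counts. The Hba-a1 share of the pair moved from a mean of 76.6% to 50.3% in the read-based table. The count of members over 2-fold apart moved from 4 of 7 compared to 8 of 9 in the read-based table. There, 72.6% of all genes were over 2-fold lower in replicate 2. The count moved to 2 of 7 with TMM factors and with DESeq2 size factors (Mpg and Hba-a2, both lower). Of all 9029 genes compared, 32.3% were over 2-fold lower with TMM factors and 30.7% with DESeq2 size factors. Those over 2-fold higher numbered 1396 and 1556. With the read-based table rescaled over nuclear protein-coding genes the count was 3 of 9 (Mpg and Hba-a1 lower, Hbq1b higher). Of the 9198 genes compared on that scale, 1936 were over 2-fold lower and 1485 over 2-fold higher. The count of members was also 3 with the pair counted as 1 member. Of all genes called, 69.5% were lower in replicate 2 in TPM, 81.0% in CPM, 94.1% in the read-based table and 56.6% in that table over nuclear protein-coding genes.

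With each replicate alone, the pair was at 35487 to 99417 TPM, its share of the locus 99.7%, the Hba-a1 share 67.6% to 85.6%, the Nprl3 ratio 9.64 to 13.0 and the number of members detected 8. A threshold of 5 TPM left 6 detected members. The log2 ratio of Hba-x was -0.33 in CPM but 0.02 with TMM factors and 0.10 with DESeq2 size factors, and that of Rhbdf1, which is below the count filter, was -0.16, 0.20 and 0.28. These factors shift all genes alike, and relative to the median gene the ratios were 0.31 and 0.49 on all 3 scales. The cause of the other moves was not tested. No paired analysis was possible because there is only 1 group. Depth limits Hba-x, Hbq1b, Rhbdf1 and Hbq1a most, with 0 to 27 M21 expected counts in replicate 2.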
